A study of Mus musculus with 18 samples.

Results

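The receptor tyrosine kinases described here are 47 genes chosen by name as members of this family of cell surface receptors, out of 50686 genes counted in E0771 cells. The choice was made with earlier results of these data known. Of the 47 genes, 22 had enough reads to be tested, and 12772 of all genes were. A gene that passed the filter on low counts only through the groups in which it is high had to differ between groups. Ntrk3, through cntrl, and Mst1r, through the shRNA lines, were such genes among the 22. Their calls and adjusted p-values between these lines are given as description only. The other 25 reached no more than 14 counts in any library and are given as counts. E0771 cells come from a mouse mammary tumor and are labelled triple negative, and the study asked how knockdown of the Mediator kinase CDK8, or inhibition of its kinase activity, changes the RNA of these tumor cells.

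There were 6 groups of 3 RNA-seq libraries each. The cntrl line carried a non-targeting hairpin against Renilla, the shCdk8-1 line the hairpin CDK8.1593 and the shCdk8-2 line the hairpin CDK8.1830. All 3 lines carried a Luciferase construct and a retroviral hairpin vector with an mCherry marker, on which transduced cells were sorted. Each line was kept for 48 h either in DMSO or in 1 µM Senexin B (SnxB), an inhibitor of CDK8 and its paralog CDK19. Each line was 1 transduced population, so an effect of a hairpin and another difference between populations cannot be told apart. Both shRNA comparisons also share the same 3 cntrl libraries. The labels do not say that the 3 libraries of a group came from separate cultures, so that p-values measure only the spread between these libraries.

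Receptor tyrosine kinases span the plasma membrane with an extracellular part that binds a ligand and an intracellular kinase. Ligand binding brings receptors together, they phosphorylate each other on tyrosines, and adaptor proteins docked there pass the signal to the RAS-ERK and PI3K pathways. In breast tissue, ErbB receptors, MET, AXL, the FGF and PDGF receptors and the insulin-like growth factor receptor are best known for control of growth, survival, migration and the exchange with surrounding stroma.

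The libraries held 16452260 to 22664693 counts. Levels are in CPM (counts scaled by TMM library size), and 3 counts in a library correspond to 0.132 to 0.182 CPM. Cdk8 mRNA was 56.1 ± 2.13 CPM (SD, n = 3) in cntrl, 21.4 ± 2.44 CPM in shCdk8-1 and 38.9 ± 0.376 CPM in shCdk8-2 cells in DMSO, so that the knockdown was partial and unequal. The 6 epithelial markers Krt8, Krt18, Epcam, Cdh1, Krt7 and Krt19 summed to 0.325 to 0.49 CPM in cntrl, to 8.22 to 9.18 CPM in shCdk8-1 and to 12.5 to 14.6 CPM in shCdk8-2 libraries in DMSO, most of it Krt8. Of 4 mesenchymal markers, Vim was 4431, 3912 and 4181 CPM in cntrl, shCdk8-1 and shCdk8-2 cells in DMSO. Zeb1 was 191, 129.9 and 134 CPM. The other 2, Fn1 and Cdh2, reached no more than 3 and 1 counts in any library. The mRNA of the estrogen receptor gene Esr1 was 23.1 ± 1.42 CPM in cntrl, 1.25 ± 0.261 CPM in shCdk8-1 and 0.951 ± 0.266 CPM in shCdk8-2 cells, and Pgr had no count. Receptor protein was not measured in these data, so the Esr1 level does not test the triple negative label. Of 7 leukocyte and macrophage markers, 4 reached no more than 3 counts in any library, the summed level was 7.16 to 7.5 CPM in cntrl and 3.36 to 4.99 CPM in the shRNA lines, and Adgre1, Itgam and C1qa were at or near 0. Of 5 endothelial markers, Cldn5 and Emcn were at or near 0. Pecam1 was 0.286 CPM in cntrl, 14.3 CPM in shCdk8-1 and 5.85 CPM in shCdk8-2 cells. Vwf was higher in the shRNA lines too, from 0.889 CPM to 1.68 and 1.5 CPM. Cdh5 went the other way, from 4.34 CPM to 0.206 and 0.595 CPM. The 5 fibroblast markers summed to 1958 to 2025 CPM in cntrl and 1394 to 1757 CPM in the shRNA lines, nearly all of it Col3a1. Col1a1 instead went up from 0.78 to 16.6 and 9.91 CPM and Dcn from 0.539 to 1.82 and 0.814 CPM. Lum and Thy1 reached no more than 7 and 1 counts in any library, and 3 mast cell markers were at or near 0. These marker levels moved with the lines compared below, and their part in the results was not tested. Library 1 of cntrl in SnxB and library 2 of shCdk8-1 in DMSO stood apart from the other libraries of their groups, with a chi-square per degree of freedom against them of 7.75 to 9.87 and 11.3 to 16.4, where the other pair of the group had 2.79 and 3.86. Library 3 of shCdk8-2 in DMSO stood apart in the same way, with 9.52 and 10.3 against 2.39, as did library 2 of shCdk8-1 in SnxB (8.21 and 12.4 against 4.13) and library 1 of shCdk8-2 in SnxB (5.71 and 6.04 against 1.59).

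In cntrl cells in DMSO, Axl, Met, Fgfr1, Pdgfrb, Ddr2 and Pdgfra had the highest receptor mRNA per length, given as CPM per kilobase of exon. Axl, a receptor for the bridging ligand GAS6, was 95.3 ± 1.53 CPM per kilobase (SD, n = 3), and Met, the receptor for hepatocyte growth factor, 71.5 ± 2.44. Fgfr1, a receptor for fibroblast growth factors, followed with 64.8 CPM per kilobase, and the receptor for PDGF-B, Pdgfrb, with 48.4. The collagen receptor Ddr2 was at 40.7 and Pdgfra, which binds PDGF-A among others, at 28.5 CPM per kilobase. No library of one of these 6 genes overlapped those of the next. The ranges of Pdgfra, the ephrin receptor Epha2 and the WNT-binding receptor Ryk overlapped, all at a mean of 28.5 CPM per kilobase.

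Ephb4, a receptor for ephrin-B2, was at 15.6 CPM per kilobase, clear of its neighbours in the order. Erbb2, Igf1r and Egfr were at 10.6, 10.5 and 10.4 CPM per kilobase and overlapped, as did Ddr1 at 9.93 and the insulin receptor Insr at 9.62. Ptk7, a pseudokinase of WNT signaling, was at 6.55 CPM per kilobase. The TAM receptors Mertk and Tyro3, relatives of Axl, were near each other at 3.4 and 3.34 CPM per kilobase with overlapping libraries. Fgfr3, Erbb3, Ephb3, Ntrk3 and Mst1r were each under 1 CPM per kilobase, at 0.865, 0.654, 0.363, 0.0542 and 0.0182. Axl held the first place in each of the 6 groups, whereas Met went from the second place in cntrl to place 6 in shCdk8-1 and place 3 in shCdk8-2 cells in DMSO. Met shared place 3 with Ryk, with overlapping libraries, and its libraries in shCdk8-1 overlapped those of Pdgfrb. In SnxB Met was at place 6 in both shRNA lines, so the places do not separate the hairpins.

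**Figure D1:**
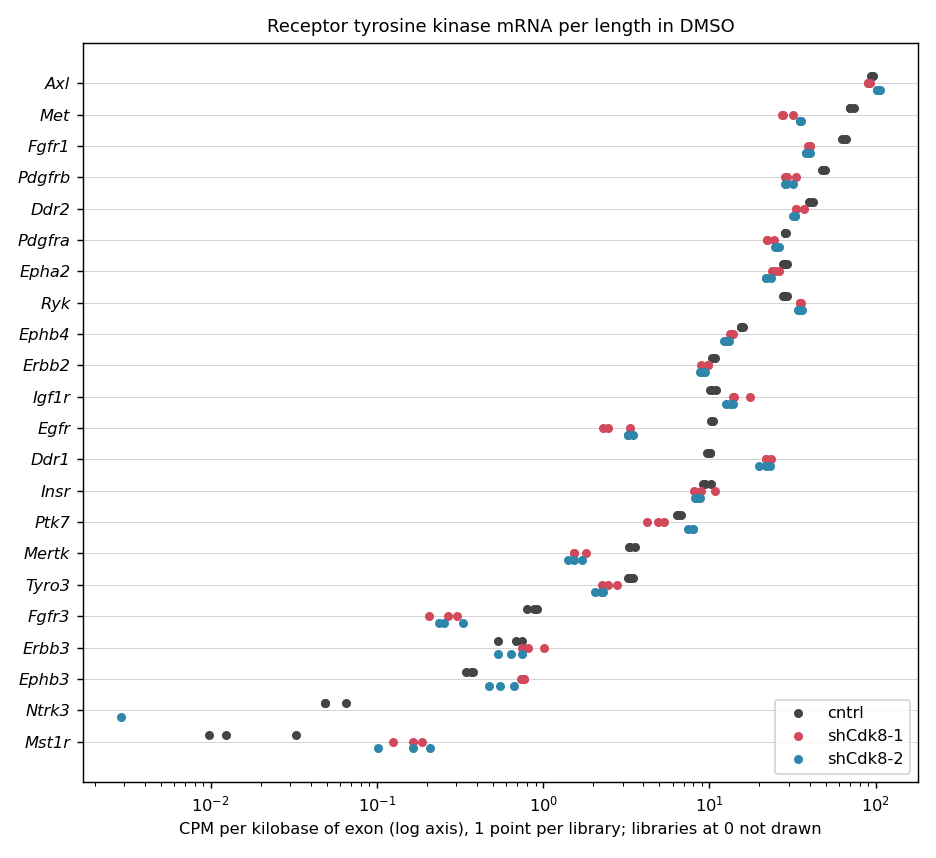
Level of the 22 tested receptor tyrosine kinases in DMSO in CPM per kilobase of exon on a log axis, ordered by the cntrl mean. Each point is 1 library of cntrl, shCdk8-1 or shCdk8-2 cells, and libraries at 0 are not drawn. Axl is at the top in each line. The points of Met, Egfr, Mertk and Fgfr3 lie lower, those of Ddr1 and Mst1r higher, in both shRNA lines than in cntrl. Ntrk3 has no point for shCdk8-1, and for shCdk8-2 only that of library 1, which lies below cntrl.

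Knockdown of Cdk8 went with lower mRNA of Met, Egfr, Mertk, Fgfr3 and Ntrk3 and with higher mRNA of Ddr1 and Mst1r, each by more than 2-fold against cntrl with either shRNA. To be called, a gene needed both a change of more than 2-fold and an adjusted p below 0.05 in edgeR's quasi-likelihood test with Benjamini-Hochberg adjustment. With shCdk8-1, 8 of the 22 tested receptors were called (36.4%), 3 higher and 5 lower, where 12.5% of all tested genes were called, 5.37% higher and 7.14% lower. With shCdk8-2, 7 were called (31.8%), 2 higher and 5 lower, where 11% of all tested genes were, 5.07% higher and 5.95% lower. These counts, and those at the adjusted p alone, include Ntrk3 and Mst1r, which passed the filter only through the groups where they are high. Calls of these genes add no evidence to the shares. The receptors and the other gene lists were chosen with earlier results of these data known. Their shares, here and below, are therefore a description only and do not test for enrichment. At the adjusted p alone, 20 of 22 passed in each comparison, 6 higher and 14 lower with shCdk8-1 and 7 higher and 13 lower with shCdk8-2, beside 59.6% (30.1% higher, 29.5% lower) and 57.1% (29% higher, 28.1% lower) of all tested genes. The median log2 fold change of the tested receptors was -0.22 with shCdk8-1 and -0.26 with shCdk8-2, beside medians of 0.01 and 0.01 over all tested genes. In bulk RNA, fewer cells that express a gene and less RNA per cell cannot be told apart.

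Met (ENSMUSG00000009376.15, GRCm38, plus strand, chr6:17463800-17573980) encodes the receptor that drives scattering and invasive growth of epithelial cells. In DMSO it was 539.5, 537 and 571 CPM in the cntrl libraries, 209, 243 and 211 CPM in shCdk8-1 and 268, 269 and 273 CPM in shCdk8-2 libraries. The 3 lines did not overlap, and each shRNA library was below each cntrl library, with shCdk8-1 lowest. On the log2 scale Met changed by -1.31 (SE 0.0576, adjusted p = 9.4e-14, edgeR) with shCdk8-1 and -1.03 (SE 0.057, adjusted p = 5.97e-12) with shCdk8-2. The change with shCdk8-2 is close to 2-fold and was -0.997 without cntrl library 3 and -0.993 when libraries were scaled by their totals.

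Egfr (ENSMUSG00000020122.16, plus strand, chr11:16752203-16918158), the receptor for EGF, TGF-alpha and amphiregulin, was 116, 118 and 118 CPM in the cntrl libraries. It was 27.6, 37.5 and 25.9 CPM in shCdk8-1 and 36.6, 39.2 and 36.6 CPM in shCdk8-2 libraries. Neither shRNA line overlapped cntrl, while the 2 shRNA lines overlapped through shCdk8-1 library 2. For Egfr the log2 fold change was -1.96 (SE 0.0928, adjusted p = 3.13e-13, edgeR) and -1.65 (SE 0.0902, adjusted p = 4.75e-12). Without shCdk8-1 library 2, the one that stood apart, Egfr had -2.13 and Met -1.39, and without shCdk8-2 library 3 they had -1.63 and -1.03. Among the other ErbB genes, Erbb2, which has no ligand of its own, moved by less, with log2 fold changes of -0.16 (adjusted p = 0.0239) and -0.23 (adjusted p = 0.00249). The Erbb2 value with shCdk8-1 did not pass without cntrl library 2 (adjusted p = 0.0744), cntrl library 3 (0.0522) or shCdk8-1 library 1 (0.138). Erbb3, which has little kinase activity and binds neuregulins, had 0.39 (adjusted p = 0.0424) with shCdk8-1 and -0.02 (adjusted p = 0.916) with shCdk8-2. The Erbb3 value passed 0.05 in 12 of the 18 fits that leave out 1 library, and it was 0.25 (adjusted p = 0.24) without shCdk8-1 library 3 and 0.26 (adjusted p = 0.21) without cntrl library 2. It did not pass with DESeq2 (adjusted p = 0.0661), with the replicate block (0.0561), in a fit of 12 libraries (0.0694) or of the groups compared only (0.0612). Erbb4 had at most 1 count in a library.

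Mertk (ENSMUSG00000014361.5, plus strand, chr2:128698956-128802894) encodes a receptor best known for the uptake of dying cells. It was 15.5, 14.2 and 14.5 CPM in the cntrl libraries, 6.63, 7.81 and 6.66 CPM in shCdk8-1 and 7.4, 6.69 and 6.14 CPM in shCdk8-2 libraries. The shRNA lines overlapped each other and neither overlapped cntrl. Mertk had a log2 fold change of -1.07 (SE 0.0924, adjusted p = 3.86e-09, edgeR) with shCdk8-1 and -1.12 (SE 0.0921, adjusted p = 2.51e-09) with shCdk8-2. Its relative Tyro3 fell with both shRNAs by less than 2-fold, by 0.43 (adjusted p = 9.31e-05) and by 0.61 (adjusted p = 1.89e-06) on the log2 scale.

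Axl, the third TAM receptor, was 473, 478 and 488 CPM in the cntrl libraries, 449.7, 452 and 463 CPM in shCdk8-1 and 514, 538 and 511 CPM in shCdk8-2 libraries. The shCdk8-1 libraries lay just below and the shCdk8-2 libraries just above those of cntrl. The log2 fold change was -0.08 (approximate 95% interval -0.15 to -0.0026, adjusted p = 0.0888, edgeR) with shCdk8-1 and 0.12 (adjusted p = 0.011) with shCdk8-2. The latter did not pass without cntrl library 1 (0.10, adjusted p = 0.0648) or without shCdk8-2 library 2 (0.09, adjusted p = 0.0665).

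Fgfr3 (ENSMUSG00000054252.17, plus strand, chr5:33721674-33737068), an FGF receptor known for its part in skeletal growth, was 6.28, 6.56 and 5.73 CPM in the cntrl libraries. It was 2.16, 1.48 and 1.91 CPM in shCdk8-1 and 1.7, 2.35 and 1.81 CPM in shCdk8-2 libraries, below each cntrl library. The log2 fold change was -1.72 (SE 0.151, adjusted p = 4.69e-09, edgeR) and -1.67 (SE 0.148, adjusted p = 7.74e-09). Fgfr1 was 657, 643 and 619.9 CPM in the cntrl libraries, 389, 397 and 398 CPM in shCdk8-1 and 374, 396 and 375 CPM in shCdk8-2 libraries. It did not overlap cntrl in either line, and it fell by 0.70 (adjusted p = 1.04e-11) and by 0.75 (adjusted p = 5.5e-12) on the log2 scale, less than 2-fold. Fgfr2 and Fgfr4 reached at most 9 and 2 counts in a library.

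Ntrk3 (ENSMUSG00000059146.12, minus strand, chr7:78175959-78738012), the receptor for neurotrophin-3, was low in cntrl cells and nearly absent from the reads of the shRNA lines. The cntrl libraries held 1.97, 1.46 and 1.47 CPM, 89 counts in all. The shCdk8-1 libraries had 0 counts, which places them at least 10.5-fold lower when each library is set at 3 counts, and the call by edgeR had an adjusted p of 2.74e-07. The shCdk8-2 libraries had 2 counts, both in library 1, a ratio 48.1-fold lower with a 95% interval from 12.9 to 402 for counting error only (adjusted p = 6.51e-07, edgeR).

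Among the called receptors that rose, Ddr1 (ENSMUSG00000003534.17, minus strand, chr17:35681567-35704621), a collagen receptor found mainly on epithelial cells, was the most abundant. It was 46, 48 and 48.2 CPM in the cntrl libraries, 104, 113 and 104 CPM in shCdk8-1 and 104, 111 and 95 CPM in shCdk8-2 libraries. The lowest shRNA library lay above the highest cntrl library, and the 2 shRNA lines overlapped. The log2 fold change was 1.17 (SE 0.0516, adjusted p = 9.58e-14, edgeR) and 1.12 (SE 0.0516, adjusted p = 2.9e-13). Its relative Ddr2 was 387, 369.8 and 374 CPM in the cntrl libraries, 308, 342 and 309 CPM in shCdk8-1 and 295, 304 and 302 CPM in shCdk8-2 libraries. Ddr2 went the other way, with a log2 fold change of -0.24 (adjusted p = 0.00104) and -0.33 (adjusted p = 4.32e-05) and no overlap with cntrl.

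Mst1r (ENSMUSG00000032584.12, plus strand, chr9:107906873-107920383) encodes RON, the relative of MET that binds macrophage stimulating protein. The cntrl libraries held 0.0616, 0.163 and 0.049 CPM, 5 counts in all, which is at the limit of detection. The shCdk8-1 libraries held 0.94, 0.627 and 0.826 CPM and the shCdk8-2 libraries 0.827, 0.511 and 1.04 CPM, all above each cntrl library. The summed counts, 47 and 48, gave a level 9.04-fold (95% interval 3.61 to 29.1) and 8.9-fold (3.56 to 28.7) that of cntrl, with intervals for counting error only and edgeR's adjusted p at 2.73e-05 and 3.41e-05. Ephb3, a receptor for B-type ephrins, was 2.16, 2.39 and 2.3 CPM in the cntrl libraries, and 4.84, 4.84 and 4.6 CPM in shCdk8-1 libraries. In shCdk8-2 libraries Ephb3 was 3.44, 4.19 and 2.96 CPM, above each cntrl library and below each shCdk8-1 library. It was called with shCdk8-1 (log2 fold change 1.06, adjusted p = 4e-05), and had 0.63 (adjusted p = 0.0077) with shCdk8-2, which became 0.49 (adjusted p = 0.0518) without shCdk8-2 library 2.

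**Figure D2:**
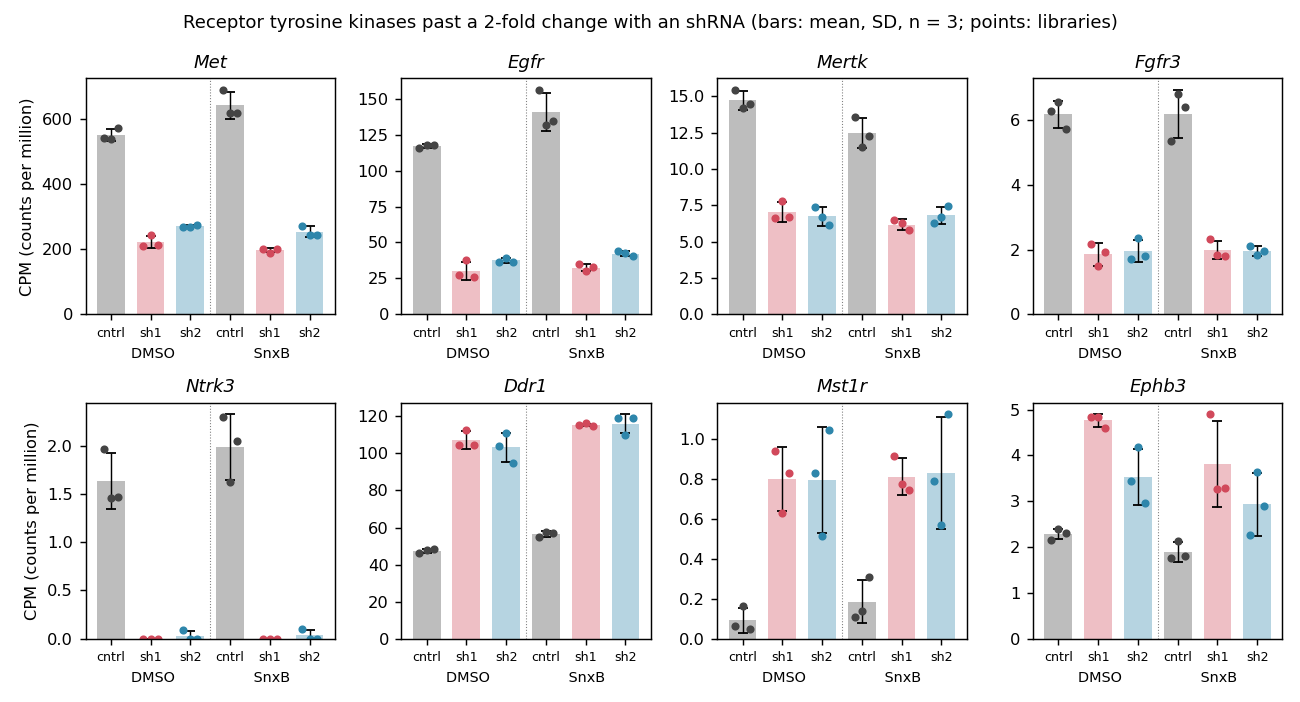
CPM of the 8 receptors called with an shRNA in DMSO, in cntrl, shCdk8-1 (sh1) and shCdk8-2 (sh2) cells in DMSO on the left and SnxB on the right of each panel, with bars for the mean, error bars for the SD (n = 3) and 1 point per library. In each panel the cntrl points in DMSO are clear of those of both shRNA lines, with Met at 537 to 571 CPM in cntrl against 209 to 273 CPM in the shRNA lines.

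The remaining receptors moved by less than 2-fold. Pdgfrb was 271, 261 and 265 CPM in the cntrl libraries, 157, 182 and 159.8 CPM in shCdk8-1 and 158, 173 and 156 CPM in shCdk8-2 libraries. It did not overlap cntrl and fell by 0.67 (adjusted p = 5.66e-09, edgeR) and by 0.71 (adjusted p = 3.52e-09) on the log2 scale. Pdgfra was 285, 285 and 288 CPM in the cntrl libraries, 222, 245 and 221 CPM in shCdk8-1 and 248, 263 and 257 CPM in shCdk8-2 libraries. It too lay below cntrl in each shRNA library, and its log2 fold change was -0.32 (adjusted p = 6.94e-05) and -0.16 (adjusted p = 0.0218), the latter not past 0.05 without cntrl library 3 (-0.15, adjusted p = 0.0561) or shCdk8-2 library 1 (-0.14, adjusted p = 0.0749). Epha2 fell by 0.20 and 0.34 and Ephb4 by 0.20 and 0.30 on the log2 scale.

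Igf1r, the receptor for insulin-like growth factors, rose by 0.54 (adjusted p = 8.81e-05, edgeR) and 0.34 (adjusted p = 0.00598), and Ryk rose by 0.31 (adjusted p = 6.03e-08) and 0.30 (adjusted p = 1.25e-07). Insr had log2 fold changes of -0.06 (approximate 95% interval -0.24 to 0.13, adjusted p = 0.632) and -0.19 (-0.37 to -0.0040, adjusted p = 0.0959), which did not pass. Ptk7 differed in sign between the shRNAs, with -0.44 (adjusted p = 3.47e-05) against 0.24 (adjusted p = 0.00573). It was 27.9 ± 0.73 CPM in cntrl, 20.5 ± 2.34 CPM in shCdk8-1 and 33.0 ± 1.15 CPM in shCdk8-2 cells (SD, n = 3). The shCdk8-2 libraries lay above and the shCdk8-1 libraries below each cntrl library.

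**Figure D3:**
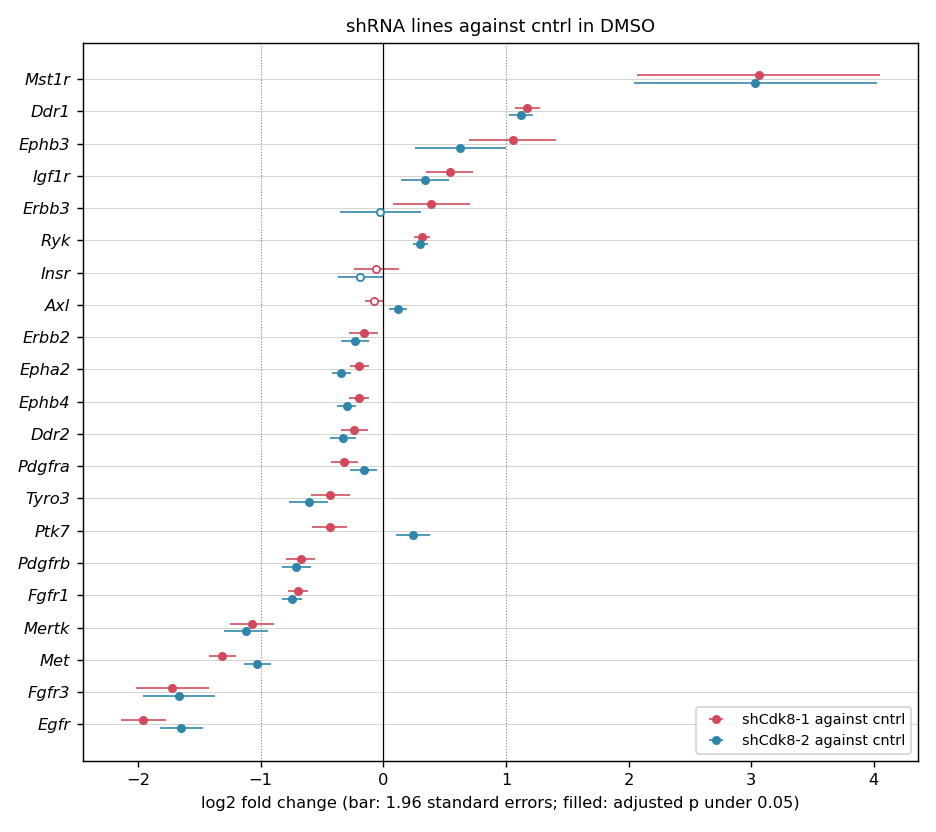
Log2 fold change of 21 tested receptors against cntrl in DMSO for shCdk8-1 and shCdk8-2, with bars for approximate 95% intervals, filled points at an adjusted p under 0.05 and dotted lines at a 2-fold change. Ntrk3 is left out because the shCdk8-1 libraries had 0 counts. Egfr, at -1.96 and -1.65, and Fgfr3, at -1.72 and -1.67, lie lowest, Mst1r highest, at 3.06 and 3.03, and Ptk7 has opposite signs.

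The DNA just before the transcription start of the called receptors is shown because these genes differed from cntrl with both shRNAs. RefSeq starts on GRCm38.p6 were used for 40 of the 47 receptors, in 47 windows. Each window holds the 250 bases before a start, written 5′ to 3′ on the strand of the gene. Capitals mark 3 motifs searched on both strands: the GC box GGGCGG or CCGCCC, to which SP factors bind, the AP-1 motif TGACTCA or TGAGTCA, and the E-box CAGGTG or CACCTG, which SNAIL and ZEB repressors recognise. Of 32851 windows of all genes, 32.7% hold the GC box, 4.46% the AP-1 motif and 17.2% the E-box. The windows of 3 genes that fell are on the plus strand at chr6:17463707-17463956 (Met), chr11:16751953-16752202 (Egfr) and chr2:128698665-128698914 (Mertk).
Met: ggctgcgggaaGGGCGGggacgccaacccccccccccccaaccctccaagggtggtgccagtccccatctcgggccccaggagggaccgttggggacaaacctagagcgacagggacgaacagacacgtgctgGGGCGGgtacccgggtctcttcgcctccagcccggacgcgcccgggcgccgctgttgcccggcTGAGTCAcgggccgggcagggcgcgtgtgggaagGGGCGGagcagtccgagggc
Egfr: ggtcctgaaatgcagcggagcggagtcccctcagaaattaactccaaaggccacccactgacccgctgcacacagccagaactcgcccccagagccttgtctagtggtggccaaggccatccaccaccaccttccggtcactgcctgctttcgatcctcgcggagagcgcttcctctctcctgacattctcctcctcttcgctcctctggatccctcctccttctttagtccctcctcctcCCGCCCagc
Mertk: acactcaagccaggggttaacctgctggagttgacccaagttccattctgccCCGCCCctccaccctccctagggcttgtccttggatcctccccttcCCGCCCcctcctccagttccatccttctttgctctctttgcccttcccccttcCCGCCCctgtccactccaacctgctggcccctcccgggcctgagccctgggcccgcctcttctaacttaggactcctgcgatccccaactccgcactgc

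The Met window held 3 GC boxes and 1 AP-1 motif that begins 54 bases before the start, with a GC content of 74.0%. The Egfr window held 1 GC box (60.8% GC) and the Mertk window 3 (63.6% GC). Both Fgfr3 windows held GC boxes, 3 and 2. For the genes that rose, the window of the most upstream RefSeq start is given. That of Ddr1 is on the minus strand at chr17:35704600-35704849 and that of Mst1r on the plus strand at chr9:107906639-107906888.
Ddr1: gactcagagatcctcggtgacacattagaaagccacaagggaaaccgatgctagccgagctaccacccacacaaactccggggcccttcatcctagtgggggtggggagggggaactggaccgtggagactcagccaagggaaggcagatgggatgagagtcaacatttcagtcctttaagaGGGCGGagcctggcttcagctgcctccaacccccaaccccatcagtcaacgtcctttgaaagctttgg
Mst1r: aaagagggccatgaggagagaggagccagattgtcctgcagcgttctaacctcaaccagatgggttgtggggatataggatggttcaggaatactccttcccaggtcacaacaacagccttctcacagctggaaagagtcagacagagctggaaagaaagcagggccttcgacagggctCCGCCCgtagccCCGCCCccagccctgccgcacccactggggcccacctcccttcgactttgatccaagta
The Ddr1 window held 1 GC box and the Mst1r window 2. Ddr1 has 3 further windows. Of these, 1 held a GC box, an AP-1 motif and an E-box, 1 held 3 GC boxes and 1 held no motif. The other Mst1r window held no motif either. The Ephb3 window held 2 GC boxes. Among tested receptors that were not called, GC boxes also stood in the windows of Axl, Tyro3, Igf1r, Epha2, Ephb4, Ryk and Ptk7. Those of Erbb2, Pdgfra and Ddr2 held none. A GC box was thus not particular to the called receptors. These matches describe the letters in the windows and were not compared with binding data.

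SnxB changed none of the tested receptors by more than 2-fold in any line. Mst1r came nearest in cntrl cells, at a log2 fold change of 0.979 that did not pass the adjusted p. It rests on 5 counts in DMSO and 11 in SnxB. The counts of called receptors were 0 of 22 in cntrl, shCdk8-1 and shCdk8-2 cells, beside 0.305%, 0.11% and 0.125% of all tested genes. Without adjustment 13, 4 and 5 receptors had a p under 0.05 in the 3 lines, and by the adjusted p alone there were 6, 1 and 2 (27.3%, 4.55% and 9.09% of the 22), beside 5.54%, 1.48% and 2.05% of all tested genes. The share of all tested genes at an unadjusted p under 0.05 was not counted. Counts at that threshold, here and below, therefore have no background to be read against. DESeq2 likewise called 0 receptors past 2-fold. In cntrl cells 5 rose (Fgfr1, Pdgfra, Ddr1, Pdgfrb and Met) and 1 fell (Erbb3), beside 3.41% and 2.14% of all tested genes.

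Fgfr1 was 847, 804 and 797 CPM in cntrl cells in SnxB, above each DMSO library at 619.9 to 657 CPM. Its log2 fold change was 0.35 (SE 0.0409, adjusted p = 1.47e-05, edgeR), an increase of 27.5%. In shCdk8-1 cells it was 464, 419 and 434 CPM with a log2 fold change of 0.15 (adjusted p = 0.0674), and in shCdk8-2 cells 432, 428 and 455 CPM with 0.20 (adjusted p = 0.0108). The latter did not pass without shCdk8-2 DMSO library 1 (0.19, adjusted p = 0.0585) or SnxB library 3 (0.18, adjusted p = 0.0516). The interaction terms, -0.20 (approximate 95% interval -0.31 to -0.08, adjusted p = 0.267) and -0.15 (-0.26 to -0.04, adjusted p = 0.778), did not pass.

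Pdgfra was 387, 339 and 329 CPM in cntrl cells in SnxB against 285 to 288 CPM in DMSO, with no overlap and a log2 fold change of 0.30 (SE 0.0567, adjusted p = 0.00229, edgeR). Without library 1 of cntrl in SnxB, the one that stood apart, it was 0.23 (adjusted p = 0.0141). Pdgfrb was 341, 301 and 303 CPM against 261 to 271 CPM, again with no overlap, and its log2 fold change was 0.25 (adjusted p = 0.014), or 0.19 (adjusted p = 0.0789) without that library. The Pdgfrb value did not pass without library 2 or 3 of cntrl in DMSO either (adjusted p = 0.0656 and 0.0507). Ddr1 was 54.9, 57.7 and 56.9 CPM against 46 to 48.2 CPM, and rose by 0.25 (adjusted p = 0.00584) on the log2 scale, or by 0.27 (adjusted p = 0.00931) without that library.

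Met was 689, 618 and 616 CPM in cntrl cells in SnxB, above each DMSO library, and its log2 fold change was 0.22 (SE 0.056, adjusted p = 0.0219, edgeR). It was 0.17 (adjusted p = 0.111) without library 1 of cntrl in SnxB and 0.21 without library 1 or library 2 of cntrl in DMSO (adjusted p = 0.094 and 0.0977). In the shRNA lines Met pointed down, with -0.17 (adjusted p = 0.163) in shCdk8-1 and -0.09 (adjusted p = 0.572) in shCdk8-2 cells. The test of the difference between the responses of shCdk8-1 and cntrl cells gave -0.39 (approximate 95% interval -0.55 to -0.24, adjusted p = 0.0361). Met was the 1 receptor of 22 past the adjusted p in that interaction, where 0.305% of all tested genes were, and no receptor differed by over 2-fold, beside 0.0391% of all tested genes. It was not past 0.05 in 12 of the 18 fits without 1 library, with adjusted p up to 0.115 and a log2 difference between -0.43 and -0.32, nor with the replicate block (adjusted p = 0.0543). For shCdk8-2 the difference was -0.32 (-0.47 to -0.16, adjusted p = 0.276), and 0 receptors passed, beside 0.0548% of all tested genes, 0.0157% past 2-fold. In the interaction with each shRNA 5 receptors were at an unadjusted p under 0.05.

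Erbb3 had 3.28, 2.13 and 2.2 CPM in cntrl cells in SnxB against 4.5, 3.2 and 4.12 CPM in DMSO. The groups overlapped by SnxB library 1, and the log2 fold change was -0.64 (SE 0.182, adjusted p = 0.0434, edgeR), lost in 7 of 18 fits without 1 library, among them those without cntrl DMSO library 1 (-0.55, adjusted p = 0.175) and without cntrl SnxB library 2 (-0.52, adjusted p = 0.192). Nor did it pass with the replicate block (adjusted p = 0.0605), in a fit of 12 libraries (0.0813) or of the groups compared only (0.103). Epha2 was 124, 121 and 122 CPM in cntrl cells in SnxB, below the 129 to 136 CPM in DMSO, with a log2 fold change of -0.12 (adjusted p = 0.0806). It fell in shCdk8-1 cells by 0.21 (adjusted p = 0.00772) and in shCdk8-2 cells by 0.27 (adjusted p = 0.000581) on the log2 scale. Without library 3 of shCdk8-1 in DMSO the first was -0.17 (adjusted p = 0.0685). Egfr, at 156.5, 132 and 135 CPM in cntrl cells in SnxB, had a log2 fold change of 0.26 (adjusted p = 0.0699), and Axl, at 532, 494 and 504 CPM, one of 0.09 (adjusted p = 0.219).

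**Figure D4:**
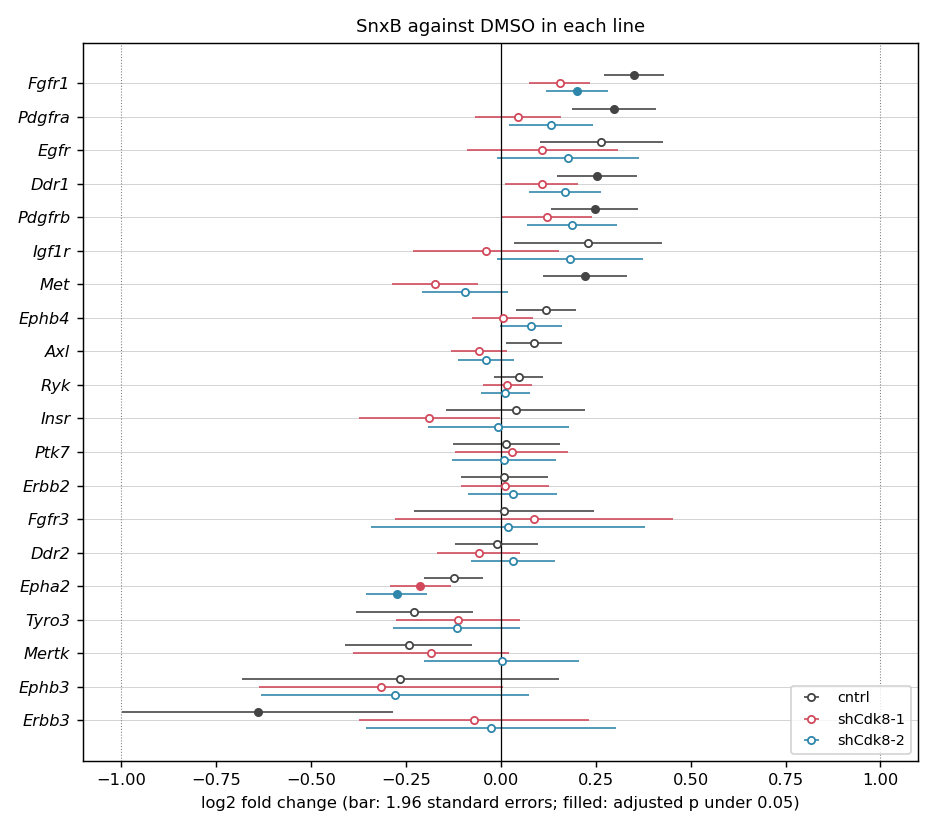
Log2 fold change of 20 tested receptors in SnxB against DMSO in cntrl, shCdk8-1 and shCdk8-2 cells, with bars for approximate 95% intervals, filled points at an adjusted p under 0.05 and dotted lines at a 2-fold change. Ntrk3 and Mst1r are left out for low counts. No point reaches a dotted line, Fgfr1 is highest of the receptors drawn in cntrl cells at 0.35, and Met lies above 0 in cntrl and below 0 in the shRNA lines.

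With all lines in SnxB, the shRNA lines again had less Met, Egfr, Fgfr3 and Ntrk3 and more Ddr1 and Mst1r than cntrl. With shCdk8-1 8 receptors were called, 3 higher and 5 lower, where 12.8% of all tested genes were (5.75% higher, 7.06% lower), and with shCdk8-2 6 were called, 2 higher and 4 lower, where 10.8% were (5.04% higher, 5.75% lower). At the adjusted p alone 22 and 21 passed, beside 60.6% and 56.7%. The counts in SnxB again include Ntrk3 and Mst1r, which the filter let in only through the groups where they are high. Met was 200, 189 and 199.9 CPM in shCdk8-1 and 272, 243 and 243 CPM in shCdk8-2 cells in SnxB, and its log2 fold change against cntrl in SnxB was -1.71 (SE 0.0582, adjusted p = 1.54e-15, edgeR) and -1.34 (SE 0.0574, adjusted p = 9.41e-14). Egfr was 34.8, 30.2 and 32.7 CPM and 43.9, 42.9 and 40.2 CPM, with -2.11 (adjusted p = 8.2e-14) and -1.73 (adjusted p = 1.75e-12). No library of Met or Egfr in these lines overlapped cntrl.

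Mertk in SnxB was 13.6, 11.5 and 12.3 CPM in cntrl, 6.45, 6.3 and 5.77 CPM in shCdk8-1 and 6.26, 6.72 and 7.45 CPM in shCdk8-2 libraries, without overlap with cntrl. Its log2 fold change was -1.01 (adjusted p = 1.76e-08, edgeR) with shCdk8-1 and, short of 2-fold, -0.87 (adjusted p = 1.41e-07) with shCdk8-2. The former was -0.95 without library 1 of cntrl in SnxB and -0.97 without library 3 of shCdk8-1 in SnxB. Erbb3 was higher in both lines, by 0.96 (adjusted p = 8.12e-05) and 0.59 (adjusted p = 0.00931), short of 2-fold, and the latter was 0.47 (adjusted p = 0.0602) without library 2 of cntrl in SnxB. Fgfr3 had -1.64 and -1.66 and Ddr1 1.03 and 1.04, each called. Ntrk3 had 0 counts in shCdk8-1 and 2 in shCdk8-2 libraries against 117 in cntrl, at least 11.9-fold lower and 51.8-fold lower (95% interval 14.0 to 433). Mst1r was 4.53-fold (2.3 to 9.72) and 4.62-fold (2.35 to 9.9) the cntrl level. Ephb3 was called with shCdk8-1 at 1.01, a change that was under 2-fold in 6 of 18 fits without 1 library and 0.79 without library 1 of shCdk8-1 in SnxB.

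The 2 shRNA lines were also compared with each other in DMSO. No receptor was called, beside 2.17% of all tested genes, and 10 were under 0.05 before adjustment. By the adjusted p alone 5 of 22 differed (22.7%), beside 21.1% of all tested genes. Ptk7 was higher in shCdk8-2 than in shCdk8-1 cells by 0.68 (SE 0.0724, adjusted p = 9.8e-07, edgeR) on the log2 scale, Egfr by 0.31 (adjusted p = 0.0297), Met by 0.29 (adjusted p = 0.00111) and Axl by 0.19 (adjusted p = 0.0008). Epha2 was lower, with a log2 fold change of -0.15 (adjusted p = 0.0136). The Egfr value ranged from 0.21 to 0.48 without 1 library and did not pass without shCdk8-1 library 1 or 3 (adjusted p = 0.133 and 0.17) or without any 1 of the shCdk8-2 libraries (0.0624, 0.0987 and 0.0521). The Epha2 value did not pass without shCdk8-1 library 3 (0.0857) or shCdk8-2 library 1 or 3 (0.0596 and 0.0691). Cdk8 itself was higher in shCdk8-2 than in shCdk8-1 cells by 0.86 (adjusted p = 9.77e-08).

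Of 60 ligands of receptor tyrosine kinases, 31 were tested. With shCdk8-1, 4 were called higher and 10 lower (45.2%), and with shCdk8-2 5 higher and 6 lower (35.5%), beside 12.5% and 11% of all tested genes. The median log2 fold change was -0.05 and -0.06. The counts of called ligands include Artn, which passed the filter only through the shRNA lines and adds no evidence to the shares. The ligands were also chosen with earlier results known, and their shares are a description only. Pros1, protein S, which activates TYRO3 and MERTK, fell from 39.0 ± 1.58 CPM (SD, n = 3) in cntrl to 4.73 ± 0.364 CPM in shCdk8-1 and 6.36 ± 0.203 CPM in shCdk8-2 cells. The log2 fold change was -3.04 (adjusted p = 1.68e-16, edgeR) and -2.62 (adjusted p = 1.39e-15). Mst1, the ligand of the receptor encoded by Mst1r, rose by 1.70 (adjusted p = 1.49e-08) and 1.57 (adjusted p = 6.76e-08), from 1.84 ± 0.295 CPM to 5.96 ± 0.796 and 5.48 ± 0.657 CPM. Efnb1, an ephrin for EphB receptors, rose from 7.04 ± 0.399 CPM to 35.6 ± 0.75 and 35.2 ± 1.01 CPM (log2 fold change 2.34 and 2.32, adjusted p = 1.85e-15 and 3.5e-15).

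Vegfc, the ligand of the lymphatic receptor FLT4, fell by 3.24 (adjusted p = 5.04e-11, edgeR) and 1.80 (adjusted p = 2e-08) on the log2 scale, and Angpt2, a ligand of TEK, by 1.79 (adjusted p = 3.99e-08) and 1.63 (adjusted p = 1.23e-07). Flt4 and Tek themselves reached no more than 2 and 5 counts in a library. Artn, a GDNF family ligand that signals through RET, had 9 counts in cntrl libraries in all and rose by 3.70 (adjusted p = 1.78e-08) and 3.56 (adjusted p = 4.75e-08). Its counts were 3, 2 and 4 in cntrl, 45, 42 and 41 in shCdk8-1 and 51, 34 and 37 in shCdk8-2 libraries, while Ret reached at most 2 counts. Artn passed the filter only through the shRNA lines, so it had to differ from cntrl. SnxB called no ligand in cntrl, shCdk8-1 or shCdk8-2 cells, beside 0.305%, 0.11% and 0.125% of all tested genes. Without adjustment 4, 4 and 3 ligands had a p under 0.05.

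Of 30 coreceptors and adaptors, 21 were tested, and 1 was called higher and 0 lower with shCdk8-1 (4.76%) and 1 higher and 2 lower with shCdk8-2 (14.3%), beside 12.5% and 11% of all tested genes. Gfra4, a coreceptor of RET, rose from 0.684 ± 0.164 CPM to 3.35 ± 0.0589 and 4.48 ± 0.284 CPM (log2 fold change 2.31 and 2.72, adjusted p = 3.9e-08 and 1.86e-09, edgeR). In cntrl cells SnxB raised the adaptor gene Grb14, whose protein binds the insulin receptor, from 2.65 ± 0.317 to 5.35 ± 0.388 CPM (log2 fold change 1.02, adjusted p = 4.14e-05). It also raised Frs3, an adaptor of FGF and Trk receptors, with 12, 17 and 14 counts in DMSO and 33, 40 and 43 in SnxB libraries (log2 fold change 1.32, adjusted p = 0.00139). Beside these 2 called adaptors (9.52% of 21), 0 were called with SnxB in shCdk8-1 and in shCdk8-2 cells, each with 5 at an unadjusted p under 0.05, and the shares of all tested genes were 0.305%, 0.11% and 0.125% in the 3 lines.

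Of 24 feedback genes, which restrain receptor signaling, 21 were tested. In each shRNA comparison 2 were called, both lower (9.52%), beside 12.5% and 11% of all tested genes, and at the adjusted p alone 14 were lower and 4 higher with shCdk8-1 and 14 lower and 3 higher with shCdk8-2. Of all tested genes, 29.5% were lower and 30.1% higher, and 28.1% lower and 29% higher. Spry4, an inhibitor of RAS-ERK signaling, fell from 129.7 ± 7.9 CPM to 56 ± 0.858 and 60 ± 1.12 CPM, by 1.21 (adjusted p = 2.36e-12, edgeR) and 1.11 (adjusted p = 1.15e-11) on the log2 scale. Spred3, of the related SPRED family, fell by 1.77 (adjusted p = 2.58e-09) and 1.10 (adjusted p = 1.25e-06), from 49.9 ± 5.55 to 14.5 ± 2.76 and 23.2 ± 0.4 CPM. SnxB called none of these feedback genes in cntrl, shCdk8-1 or shCdk8-2 cells, beside 0.305%, 0.11% and 0.125% of all tested genes. Without adjustment 8, 6 and 6 of them had a p under 0.05.

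Of 15 genes induced by ERK, a list that includes the receptor Epha2, 12 were tested. With shCdk8-1 1 was called, lower, and with shCdk8-2 0, with 10 at an unadjusted p under 0.05 in each, beside 12.5% and 11% of all tested genes called. At the adjusted p alone 7 were lower and 3 higher with shCdk8-1 and 8 lower and 2 higher with shCdk8-2, so that 83.3% passed in each, beside 59.6% and 57.1% of all tested genes. With SnxB 1 gene of this list was called in cntrl cells (8.33% of 12) and 0 in shCdk8-1 and in shCdk8-2 cells. Of all tested genes 0.305%, 0.11% and 0.125% were called in the 3 lines. The called gene was Egr1, whose counts were 7, 8937 and 16 in SnxB and 10, 22 and 15 in DMSO libraries of cntrl. The call (adjusted p = 0.00982, edgeR) rests on library 2, and without it the SnxB libraries had a mean of 0.601 CPM beside 0.848 CPM in DMSO.

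Among 11 further receptor tyrosine kinase genes and close relatives outside the 47, 6 were tested, and 1 was called higher and 3 lower with each shRNA (66.7%), beside 12.5% and 11% of all tested genes. This list too was chosen with earlier results known, and the share is a description only. Epha8, an ephrin receptor studied mostly in the nervous system, rose from 0.362 ± 0.0649 CPM to 20.1 ± 1.75 CPM in shCdk8-1 and 6.11 ± 1.02 CPM in shCdk8-2 cells (log2 fold change 5.77 and 4.04, adjusted p = 3.08e-15 and 3.66e-11, edgeR). It passed the filter only through the shRNA lines, so it had to differ from cntrl. Styk1, a receptor kinase without a known ligand, fell by 1.34 (adjusted p = 8.38e-09) and 1.33 (adjusted p = 1.07e-08) on the log2 scale, and Aatk, a kinase first described in dying myeloid cells, by 1.51 (adjusted p = 1.8e-11) and 1.05 (adjusted p = 2.48e-09).

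The 25 receptors that were not tested stayed near the limit of detection. Of these, 15 had at most 2 counts in any library, among them Kit, Ret, Ntrk2, Ror1, Ror2, Flt4 and Erbb4. Ltk and Musk reached 3 and 4 counts, Alk, Tie1 and Tek 5, Fgfr2 and Flt1 9, and Csf1r, Kdr and Ephb2 11, 12 and 14. Csf1r, the macrophage growth factor receptor, had 22 counts in cntrl, 1 in shCdk8-1 and 5 in shCdk8-2 libraries in DMSO, while of the 7 leukocyte and macrophage markers Adgre1, Itgam, C1qa and Cx3cr1 were at or near 0, Lyz2 went from 4.45 CPM to 2.17 and 1.97 CPM, Ptprc from 0.28 CPM to 0.0157 and 0 CPM and Cd68 from 2.53 CPM to 1.79 and 2.52 CPM, and the part of such cells in these counts was not tested. The VEGF receptor Kdr had 33, 3 and 7 counts and its relative Flt1 19, 8 and 9. Ephb2, an ephrin-B receptor, had 0, 14 and 15 counts in DMSO and 2, 23 and 24 in SnxB.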

How the data were processed

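RNA was sequenced from 18 libraries, 3 in each of 6 groups set by hairpin and treatment. The authors deposited raw counts per gene made with featureCounts 1.5.1 (strand setting 2) after Trimmomatic and STAR, on GRCm38. Counts are whole reads with no normalization, and totals of 16452260 to 22664693 per library set the precision. Symbols came from the GENCODE annotation of that build. Genes were filtered with edgeR's rule (minimum count 10, minimum total 15), scaled by TMM and tested in 1 fit of all 18 libraries with the quasi-likelihood test of edgeR 4.0.16 (R 4.3.3), with p-values adjusted over 12772 genes by the Benjamini-Hochberg method. The 47 receptors and the other gene lists were chosen with earlier results of these data known. By rule, values in every library were given for receptors called with both shRNAs in DMSO or in any SnxB contrast and for the 6 with the highest level per length, while those of Ephb3, Erbb3 and Epha2 were added after values were seen. Genes of other lists were named where called with both shRNAs in 1 direction at a mean of at least 1 CPM (at most 6 per list, by mean log2 fold change), or with SnxB in cntrl cells. Ratios of low counts carry exact conditional 95% intervals, which cover counting error only. The code was tested on simulated data. Other normalizations, no filter, DESeq2 1.42.0, fewer groups, a stricter adjusted p, a replicate block and the omission of each library were tried. Deviations of libraries with the same number from their group means correlated between -0.207 and 0.37 over 24 pairs, and the numbers were not taken to pair the libraries. The headers of the shCdk8-2 files give the numbers 2, 3 and 3 for libraries 1, 2 and 3, and a fit with libraries 2 and 3 summed was added after seeing the data.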

Additional observations from a re-analysis of the deposited data

Results flagged for a closer look

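For Met the response to SnxB differed between shCdk8-1 and cntrl cells by a tested log2 difference of -0.394 (edgeR, adjusted p = 0.0361). In DMSO 5 receptors differed between the shRNA lines in a test of the difference itself. On the log2 scale of shCdk8-2 against shCdk8-1, Ptk7 had 0.683, Egfr 0.31, Met 0.286, Axl 0.195 and Epha2 -0.145. The Met difference in response did not pass in 12 of 18 fits without 1 library, and the libraries without which Egfr and Epha2 did not pass are given above.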

How the results depend on the processing

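Of 5803 single gene values recomputed under up to 27 alternatives each, 104 no longer passed the adjusted p and 44 newly passed. The sign changed in 136, of which 0 were past the adjusted p as reported. Of 768 values for called results, 12 were no longer called, all by a change under 2-fold. Without the filter, 14 receptors were called with shCdk8-1 and 12 with shCdk8-2 in DMSO, 13 and 10 in SnxB, and at the adjusted p 3 and 4 passed with SnxB in shCdk8-1 and shCdk8-2 cells, 9 between the shRNA lines and 5 and 1 in the interactions, with more receptors tested. The receptors tested only without the filter reached no more than 14 counts in any library. The share of all genes called in that fit was not counted, so the higher counts add no evidence. With SnxB in shCdk8-1 cells 2 passed with library totals and 2 with DESeq2, and 0 in a fit of the groups compared only. At an adjusted p under 0.01, 3 passed with SnxB in cntrl, 1 in shCdk8-2 cells, 3 between the shRNA lines and 0 in the interaction with shCdk8-1. That interaction also had 0 with the replicate block, with the groups compared only and with shCdk8-2 libraries 2 and 3 summed, which left 1 with SnxB in shCdk8-2 cells. The replicate block changed no other count by over 1.5 times. The causes were not tested.

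Without 1 library, which relaxes the filter, 9 to 10 receptors were called with shCdk8-1 and 8 to 9 with shCdk8-2 in DMSO, 8 to 10 and 6 to 8 in SnxB, and 0 in the other comparisons. Receptors tested only in these fits were near the limit of detection, and the share of all genes called in them was not counted. At the adjusted p the ranges were 19 to 22 and 20 to 23 in DMSO, 21 to 24 and 20 to 23 in SnxB, 4 to 7, 0 to 2 and 1 to 3 with SnxB in cntrl, shCdk8-1 and shCdk8-2 cells, 3 to 7 between the shRNA lines, and 0 to 1 and 0 in the interactions. Receptors under about 10 counts per library were beyond the depth of these libraries.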
